A study of Mus musculus with 23 samples.

Results

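Sox2-positive cells sorted from the base of the mouse incisor on 2 separate days were compared with each other: 7 libraries of the second sort, batch B, against 6 libraries of the first, batch A. These 13 libraries are all the Sox2-positive libraries among the 23 of the series, and the other 10 hold the Sox2-negative cells of the same sorts (6 in batch A and 4 in batch B). All 4 groups came from mice at postnatal day 2 of a line, Sox2-GFP, in which the endogenous Sox2 promoter drives green fluorescent protein. The labial cervical loop was dissected, dissociated with collagenase and neutral protease, and sorted by fluorescence; libraries followed Smart-Seq2, which copies polyadenylated RNA over its length and does not mark the strand. The batches used different mice, so that day, mice and batch cannot be told apart. The labels do not say that the libraries of a batch came from different mice; p-values therefore measure only the spread between these libraries, which may be technical. No treatment, sex or strain background is given.

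The cervical loop is the epithelial fold at the growing end of the rodent incisor. It houses dental epithelial stem cells, marked by the transcription factor Sox2, whose descendants pass through a dividing stage and become ameloblasts, the cells that secrete enamel matrix. Sox2 is also active outside dental epithelium, among others in Schwann cell precursors, so a sort on its promoter gathers whatever cells of the dissected region use it. Which gene programmes differed between the sorts of the same reporter population was asked gene by gene and for 35 gene lists. Levels are given in CPM, the usual count rate relative to the scaled library total, which does not correct for gene length, and calling a gene required an adjusted p below 0.05 in edgeR's quasi-likelihood test, with Benjamini-Hochberg adjustment over all genes tested. In bulk RNA, fewer cells of a type and less RNA per cell cannot be told apart.

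Library totals ran from 3927780 to 5935970 estimated counts in batch A and from 2305590 to 7111350 in batch B, with means that were not shown to differ (exact permutation test, two-sided, p = 0.941). At this depth 3 counts correspond to 0.737 CPM in the shallowest library of batch A and 1.345 CPM in that of batch B; such floors cover counting error only. The share of counts in each library's 50 leading genes was 13.6% ± 0.357 for batch A (SD, n = 6) and 20.03% ± 0.702 for batch B (n = 7), with no overlap. The exact permutation p was 0.000583, the smallest this design allows (adjusted p = 0.00146 over 5 measures). The ribosomal RNA gene CT010467.1 alone took 1.59% to 2.23% of the counts in batch A and 5.97% to 9.20% in batch B, and its part in other results was not tested. Libraries 1 and 2 of batch B stood closer to each other (Spearman correlation 0.979 across genes) than to libraries 3 to 7 (0.944 to 0.955), and the named genes whose call changes without them, and the list counts that moved most, are given both ways. This correlation was lower between the batches, at 0.881 to 0.909, than within batch A (0.921 to 0.937) or within batch B (0.944 to 0.979), and the first principal component, with 33.45% of the variance, separated the batches.

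Of 54347 genes, 14025 passed the filter on low counts. Between the batches 3017 of them were called (21.5%), 1426 higher in batch B (10.2%) and 1591 lower (11.3%). A log2 fold change over 1 in size came with the call in 1083 genes (7.72%), 470 higher (3.35%) and 613 lower (4.37%). In 1420 genes (10.1%) the 7 libraries of batch B and the 6 of batch A did not overlap, 634 with batch B above (4.52%) and 786 with batch B below (5.60%). The median log2 fold change of all genes tested was -0.0084. With each library scaled to its total count only, the median was -0.093 and the calls split into 1105 higher and 2066 lower, or 34.8% higher against 47.3% in the main analysis.

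Calls were unevenly spread over the programmes. Myelin, early Schwann lineage, immediate early, DNA replication and cholesterol synthesis genes were mostly lower in batch B, skeletal muscle and ribosomal protein genes mostly higher, and the secreted enamel matrix proteins lower while dental epithelial transcription factors went both ways. The values of each programme follow, beginning with the reporter gene and epithelial identity.

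**Figure D1:**
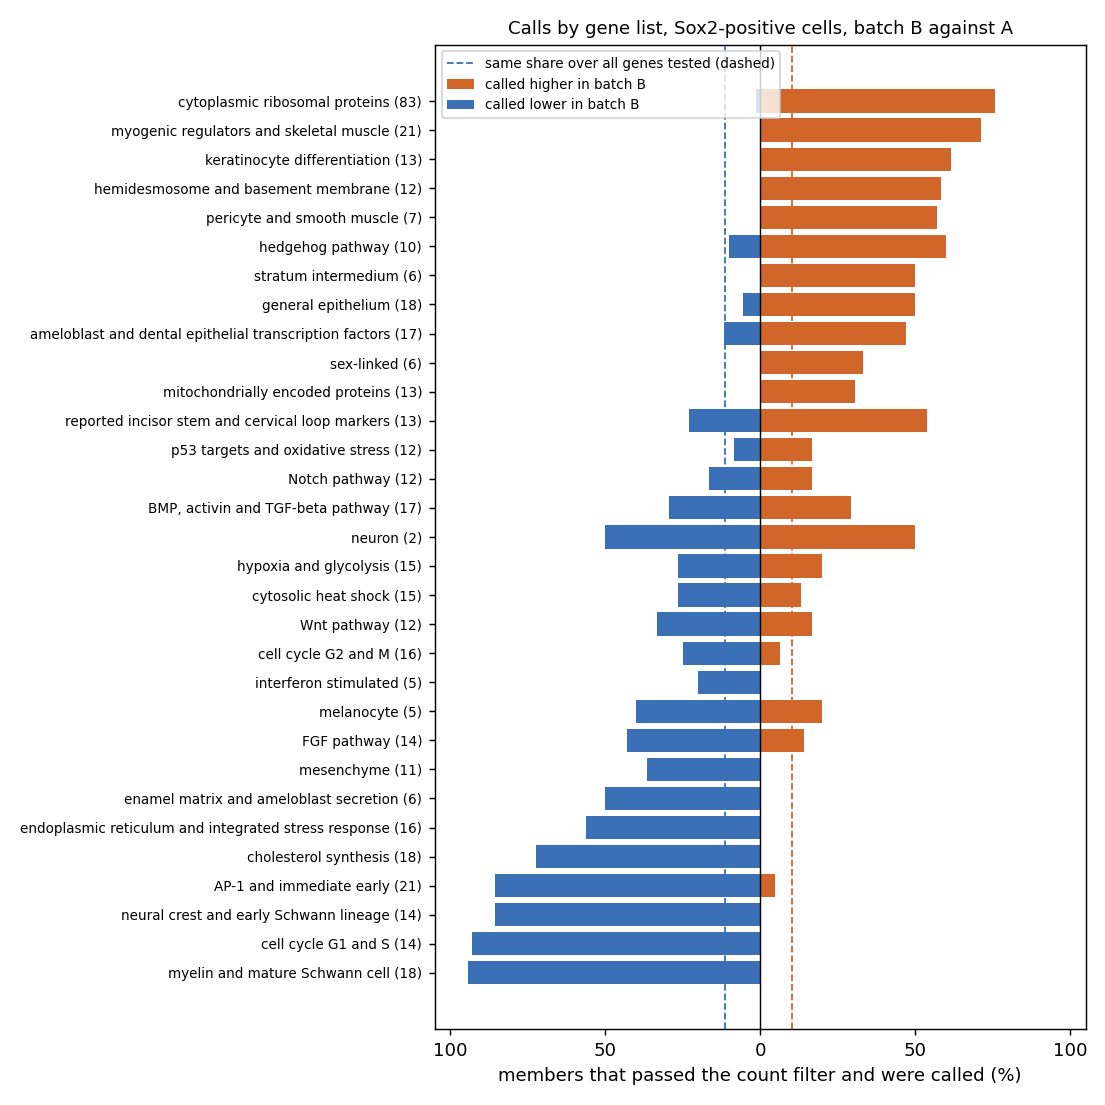
Share of the members of each gene list that were called higher (orange, to the right) or lower (blue, to the left) in batch B, as a percent of the members that passed the count filter, whose number stands in brackets; dashed lines mark the shares over all genes tested, 10.2% and 11.3%. Of the 18 myelin genes that passed, 17 were lower, and of the 21 skeletal muscle genes that passed, 15 were higher, but 10 of the former passed only through batch A and 18 of the latter only through batch B, which fixed their direction.

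Sox2 (ENSMUSG00000074637.7) ran 2.63 to 13.4 CPM (median 6.75) in batch A and 13.8 to 20.9 CPM (median 15.97) in batch B. All 7 batch B libraries lay above all 6 batch A libraries, with the batch A libraries widely spread (edgeR log2 fold change 1.17, SE 0.35, adjusted p 0.0216). Without libraries 1 and 2 of batch B the log2 fold change was 1.15 and did not pass (edgeR adjusted p 0.0617), nor did it in a fit over all 23 libraries (adjusted p 0.273). Sox2 lies within Sox2ot, a transcript on which the counts cannot be separated with certainty. Sox2ot itself ran 7.14 to 29.2 CPM (median 16.4) in batch A and 9.76 to 16.9 CPM (median 13.9) in batch B and was not called (edgeR log2 fold change -0.36, SE 0.28, adjusted p 0.411). Mean Sox2 levels in Sox2-negative libraries were 0.042 CPM for batch A and 0.277 CPM for batch B, so in both sorts the reporter gene was concentrated in the sorted cells.

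Epithelial identity was present in both sorts. Epcam, an adhesion molecule of simple and glandular epithelium, ran 770.0 to 899.5 CPM (median 793) in batch A and 748 to 816 CPM (median 800.5) in batch B, with overlapping libraries and no call (edgeR log2 fold change -0.029, SE 0.057, adjusted p 0.777). Trp63, the transcription factor that defines stratified epithelium, ran 177 to 274 CPM (median 244) in batch A and 295 to 359 CPM (median 338) in batch B, and the groups did not overlap (edgeR log2 fold change 0.52, SE 0.10, adjusted p 0.000684; 0.465 in the fit over all 23 libraries). Dsp, the desmosome plaque protein desmoplakin, ran 143 to 228 CPM (median 199.7) in batch A and 406 to 563 CPM (median 416) in batch B, all batch B libraries being higher (edgeR log2 fold change 1.26, SE 0.11, adjusted p 4.09e-08). Of 20 general epithelial markers 18 passed the filter, 3 of them only through batch B, and 9 were called higher in batch B and 1 lower. In the fit over all 23 libraries, which called 844 of 17190 genes higher, 2 of the 18 were called higher and 0 lower. The lower one was Krt18, a keratin of simple epithelium, 502 to 556 CPM (median 539.5) in batch A and 432 to 469.8 CPM (median 459) in batch B (edgeR log2 fold change -0.24, SE 0.058, adjusted p 0.00447; 0.799 in the fit over all 23 libraries and 0.065 without the filter). Leukocyte, erythroid and salivary gland markers were low in both sorts, while glial, mesenchymal and muscle markers were not and are given with their programmes. The summed level of 13 leukocyte genes ran from 1.15 to 14.5 CPM in batch A and from 2.69 to 10.6 CPM in batch B. That of 7 erythroid genes stayed under 12 CPM in all 13 libraries. In Sox2-negative libraries the same leukocyte sum ran from 3863 to 4323 CPM in batch A and from 651 to 771 CPM in batch B. The 12 salivary gland genes summed to at most 15.97 CPM (batch A) and 10.9 CPM (batch B), and none of them passed the filter.

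The basal keratins depended on which batch B libraries entered. Krt14, which pairs with Krt5 in basal keratinocytes and dental epithelium, ran 849 to 1073 CPM (median 999) in batch A and 868 to 1572 CPM (median 1464) in batch B, and was called (edgeR log2 fold change 0.41, SE 0.12, adjusted p 0.0205), but not with total-count scaling (adjusted p 0.0636) or by limma-voom (0.0739). Krt5 ran 674 to 883 CPM (median 779.6) in batch A and 557 to 1426 CPM (median 1275) in batch B and was not called (edgeR log2 fold change 0.52, SE 0.19, adjusted p 0.0545), though it passed with upper-quartile scaling (adjusted p 0.0403). The lowest batch B values of both, below or among those of batch A, were those of libraries 1 and 2. Without libraries 1 and 2 of batch B, Krt5 had a log2 fold change of 0.78 (edgeR adjusted p 1.86e-07). The summed level of the epithelial list was 5315 and 5208 CPM in those 2 libraries and 7188 to 7757 CPM in libraries 3 to 7, against 4902 to 5373 CPM in batch A.

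Genes of the epithelium's attachment and of keratinocyte differentiation were higher in batch B. Of 12 hemidesmosome and basement membrane genes, all 12 passed the filter, 7 were called higher and 0 lower, with a median log2 fold change of 0.47. The fit over all 23 libraries, which called 844 of 17190 genes higher, called 1 of the 12 higher and 0 lower. Lama3, a laminin alpha chain of the epithelial basement membrane, ran 18.4 to 51.2 CPM (median 38.2) in batch A and 88.7 to 134 CPM (median 112) in batch B without overlap (edgeR log2 fold change 1.57, SE 0.19, adjusted p 3.76e-06; 0.074 in the fit over all 23 libraries). Lama5, another laminin alpha chain, ran 82.7 to 139 CPM (median 113) in batch A and 203 to 288 CPM (median 265) in batch B, again without overlap (edgeR log2 fold change 1.19, SE 0.12, adjusted p 4.11e-07). The integrin gene Itgb4, of the hemidesmosome itself, was not called (edgeR log2 fold change 0.09, SE 0.12, adjusted p 0.655). Of 26 keratinocyte differentiation genes 13 passed the filter, and 8 were called higher and 0 lower. Of the 13, 6 passed only through batch B, Krt6a, Aqp3 and Grhl3 among them, so their direction was fixed by the filter. Of the 7 that passed in both batches 5 were called higher and 0 lower. Krt6a, a keratin of activated and suprabasal keratinocytes, ran 0 to 0.628 CPM (median 0.0823) in batch A and 3.01 to 14.2 CPM (median 4.77) in batch B (edgeR log2 fold change 5.06, SE 0.76, adjusted p 5.89e-05). The water and glycerol channel gene Aqp3 ran 0 to 1.81 CPM (median 0.0931) in batch A and 6.04 to 24.7 CPM (median 10.2) in batch B (edgeR log2 fold change 4.88, SE 0.72, adjusted p 4.42e-05). Both were near the floor of 3 counts in batch A and above it in every batch B library. The epidermal transcription factor Grhl3 ran 1.81 to 5.99 CPM (median 3.62) in batch A and 9.48 to 38.1 CPM (median 17.4) in batch B (edgeR log2 fold change 2.23, SE 0.37, adjusted p 0.000179). Bnc1, a zinc finger protein of basal keratinocytes, ran 14.7 to 40.03 CPM (median 23.8) in batch A and 63.5 to 99.1 CPM (median 75.7) in batch B (edgeR log2 fold change 1.57, SE 0.22, adjusted p 3.04e-05). The other 13 genes of that list, among them the cornified envelope genes Flg and Ivl, did not pass the filter.

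Enamel matrix genes were lower in batch B. Amelx (ENSMUSG00000031354.16), which encodes amelogenin, the most abundant protein of forming enamel, ran 248 to 306 CPM (median 278) in batch A and 4.28 to 8.74 CPM (median 6.78) in batch B. Every batch B library lay below every batch A library (edgeR log2 fold change -5.30, SE 0.15, adjusted p 2.09e-15). Enam (ENSMUSG00000029286.12), encoding enamelin, ran 15.9 to 27.7 CPM (median 23.3) in batch A and had no count in any of the 7 batch B libraries. It was at least 16.5-fold lower there, with 3 counts in the shallowest batch B library as the floor (edgeR adjusted p 2.35e-08). Ambn, encoding ameloblastin, ran 22.6 to 46.4 CPM (median 25.1) in batch A and 0 to 3.96 CPM (median 1.13) in batch B, also without overlap (edgeR log2 fold change -4.23, SE 0.46, adjusted p 1.21e-06).

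Of the 15 enamel and ameloblast secretion genes listed, 6 passed the filter, and 3 were called lower and 0 higher. The filter was passed by 2 only through batch A (Enam and Ambn), which fixed their direction, and by 2 only through batch B. Of the 2 that passed in both batches, 1 (Amelx) was called lower. Odam, an ameloblast-associated protein of the maturation stage and of junctional epithelium, ran 0 to 4.15 CPM (median 0.586) in batch A and 0.752 to 8.08 CPM (median 5.52) in batch B and did not pass (edgeR log2 fold change 1.93, SE 0.85, adjusted p 0.114). Without library 1 of batch A its log2 fold change was 2.83 and passed (edgeR adjusted p 0.0327). The enamel protease Mmp20 did not pass the filter; it ran 1.72 to 9.42 CPM (median 4.68) in batch A and 0 to 0.503 CPM (median 0) in batch B, with no overlap. Dspp, made by odontoblasts and briefly by early ameloblasts, ran 0 to 16.03 CPM (median 6.92) in batch A and 0 to 0.690 CPM (median 0) in batch B, and did not pass the filter either. The maturation-stage genes Amtn and Klk4 were at or near 0: Amtn had no count in the 13 libraries and Klk4 reached at most 1.58 CPM in batch B. The summed level of the list ran from 354 to 401 CPM in batch A and from 38.5 to 61.8 CPM in batch B.

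For Amelx and Ambn the difference between batches was larger than in Sox2-negative cells. There Amelx averaged 634 ± 64.4 CPM (batch A, SD over 6 libraries) and 427 ± 37.997 CPM (batch B, SD over 4) (edgeR log2 fold change -0.57, adjusted p 0.00426). The difference of the batch differences between the populations passed (edgeR difference of log2 fold changes -4.75, SE 0.18, adjusted p 1.01e-16). Ambn averaged 149.7 ± 12.96 CPM (batch A, SD over 6 libraries) and 178 ± 34.03 CPM (batch B, SD over 4) there and was not called (edgeR log2 fold change 0.25, adjusted p 0.389). Its difference of differences passed (edgeR difference of log2 fold changes -4.47, SE 0.44, adjusted p 1.42e-07). Enam was lower in batch B in Sox2-negative cells too, at 42.2 ± 10.1 CPM (batch A, SD over 6 libraries) and 15.2 ± 3.15 CPM (batch B, SD over 4) (edgeR log2 fold change -1.47, adjusted p 0.0111). Sox2-positive libraries of both batches thus held less Amelx than the Sox2-negative libraries of the same sort, and by a wider gap in batch B.

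**Figure D2:**
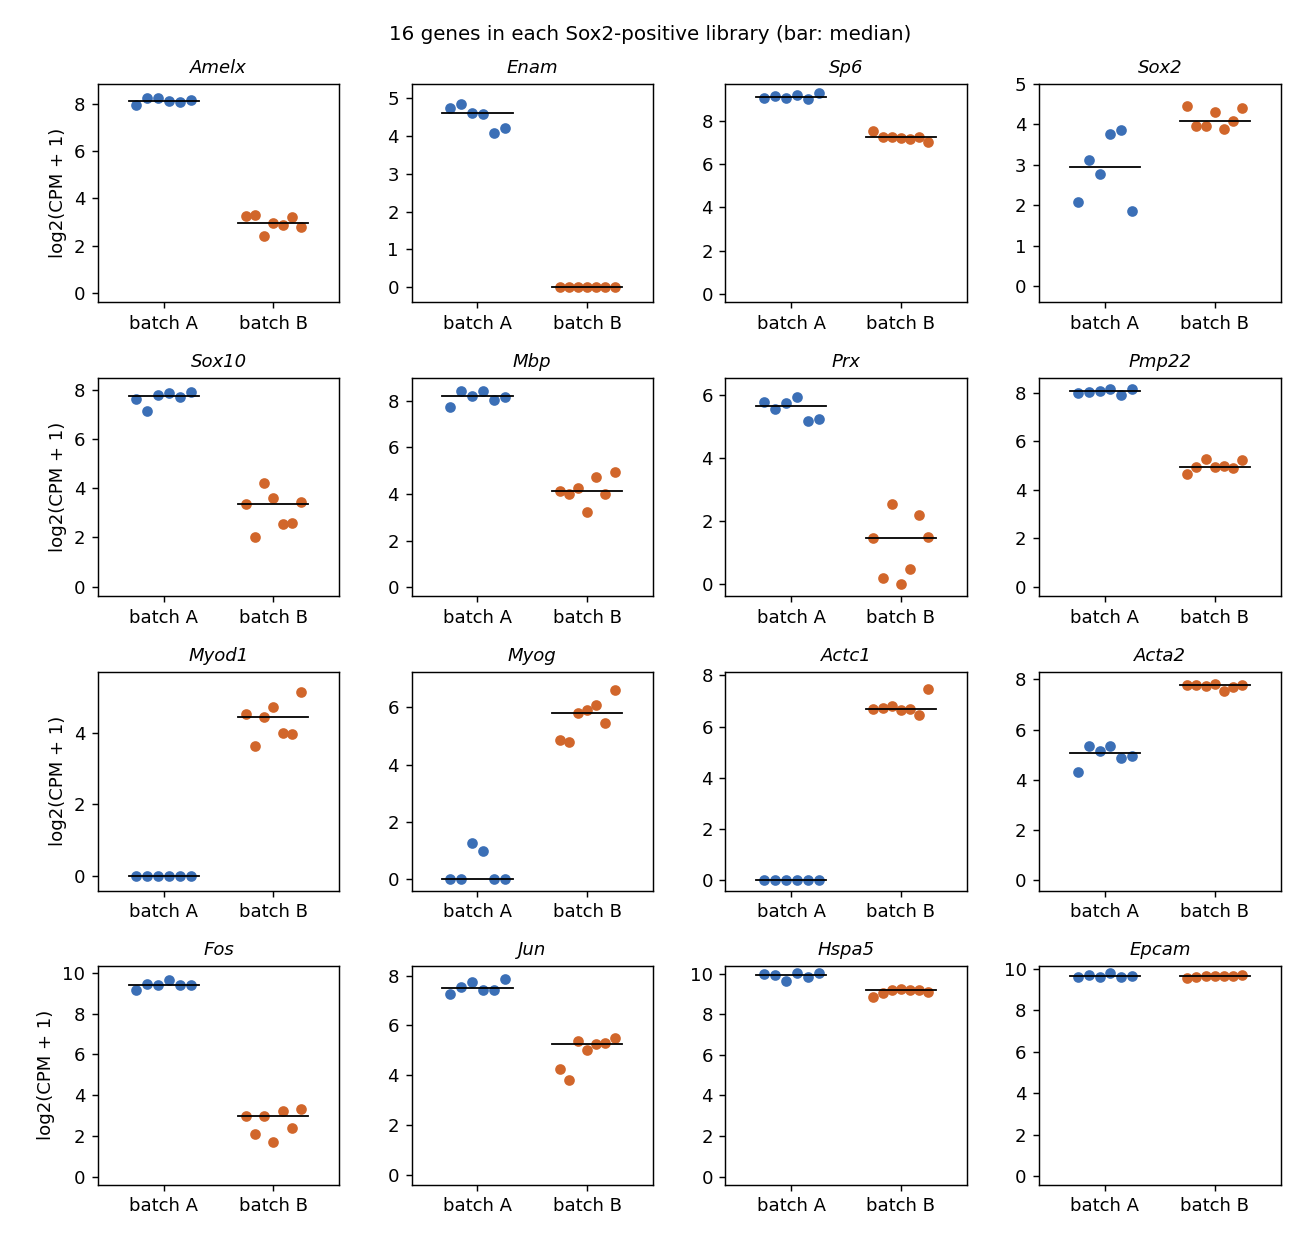
Level of 16 genes, as log2(CPM + 1), in each of the 6 batch A (blue) and 7 batch B (orange) Sox2-positive libraries; the bar is the median of the batch. Enam is at 0 in every batch B library and Myod1 and Actc1 at 0 in every batch A library, while the Epcam values of the batches overlap.

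Transcription factors of the dental epithelium did not follow the enamel genes as a group. All 17 listed passed the filter, 8 were called higher in batch B and 2 lower, with a median log2 fold change of 0.30. The fit over all 23 libraries, which called 844 of 17190 genes higher and 967 lower, called 4 of the 17 higher and 2 lower. The homeobox gene Dlx5 ran 35.7 to 57.8 CPM (median 43.5) in batch A and 97.3 to 117 CPM (median 106) in batch B (edgeR log2 fold change 1.26, SE 0.13, adjusted p 5.54e-07). Runx1, another factor of dental epithelium, ran 102 to 156 CPM (median 145) in batch A and 209.8 to 310.2 CPM (median 238) in batch B (edgeR log2 fold change 0.84, SE 0.12, adjusted p 3.19e-05). Both were higher in every batch B library than in any of batch A. Sp6, also called epiprofin, a zinc finger factor needed for ameloblast differentiation, ran 519 to 638 CPM (median 553) in batch A and 131 to 186 CPM (median 150.3) in batch B and was lower in every batch B library (edgeR log2 fold change -1.89, SE 0.084, adjusted p 2.52e-12). Satb1, a chromatin organiser reported in ameloblasts, ran 137 to 189 CPM (median 178) in batch A and 74.3 to 111 CPM (median 92.8) in batch B and was likewise lower (edgeR log2 fold change -0.87, SE 0.11, adjusted p 7.23e-06). In Sox2-negative cells Sp6 averaged 161 ± 46.7 CPM (batch A, SD over 6 libraries) and 240.0 ± 37.9 CPM (batch B, SD over 4) and was not called. Its difference of differences passed (edgeR difference of log2 fold changes -2.48, SE 0.21, adjusted p 7.39e-09). For Satb1 the Sox2-negative cells were called in the opposite direction (edgeR log2 fold change 0.70, adjusted p 0.00945), with a difference of differences that passed (edgeR difference of log2 fold changes -1.59, SE 0.18, adjusted p 1.05e-06).

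Genes described elsewhere as stem cell or cervical loop markers also divided. Of 14 listed, 13 passed the filter, 1 of them only through batch A and 1 only through batch B. Of the 13, 7 were called higher in batch B (Sox2 among them) and 3 lower. Without libraries 1 and 2 of batch B, 5 were called higher and 3 lower. With all libraries, 11 passed in both batches, and 7 of these were called higher and 2 lower. Lgr5, a receptor for R-spondins that marks stem cells of several epithelia, ran 34.1 to 66.1 CPM (median 37.99) in batch A and 88.1 to 141 CPM (median 118) in batch B, with no overlap (edgeR log2 fold change 1.43, SE 0.17, adjusted p 2.93e-06). Igfbp5, a secreted binding protein of insulin-like growth factors, ran 73.2 to 104 CPM (median 82.03) in batch A and 286 to 398 CPM (median 301) in batch B, again with no overlap (edgeR log2 fold change 1.93, SE 0.11, adjusted p 1.76e-10). Its rise was larger than in Sox2-negative cells (edgeR difference of log2 fold changes 1.41, SE 0.17, adjusted p 2.32e-06). Lower in batch B was Etv4, an ETS factor induced by FGF signalling, at 123 to 162 CPM (median 131) in batch A and 37.001 to 85.7 CPM (median 56.5) in batch B (edgeR log2 fold change -1.31, SE 0.16, adjusted p 4.6e-06). Sfrp5, a secreted Wnt antagonist, ran 259 to 397 CPM (median 329) in batch A and 185 to 254 CPM (median 248) in batch B (edgeR log2 fold change -0.50, SE 0.11, adjusted p 0.00201; 0.291 in the fit over all 23 libraries). The transporter gene Abcg2 was the remaining lower one, at a log2 fold change of -2.17 (edgeR adjusted p 0.0111). It passed the filter only through batch A, which fixed its direction. Of 7 genes of the stratum intermedium, the cell layer next to ameloblasts, 6 passed the filter and 3 were called higher, the receptor gene Notch1 at a log2 fold change of 0.76, the alkaline phosphatase gene Alpl at 1.47, and Rhov. The summed level of these 7 genes was 127 and 152 CPM in libraries 1 and 2 of batch B and 211 to 256 CPM in libraries 3 to 7, against 82.3 to 130.4 CPM in batch A.

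Genes of the neural crest and the early Schwann lineage, the glia of peripheral nerve, were lower in batch B. Sox10, the transcription factor that specifies peripheral glia, ran 139 to 237 CPM (median 212) in batch A and 3.06 to 17.6 CPM (median 9.14) in batch B, so that the highest batch B library lay below the lowest of batch A (edgeR log2 fold change -4.56, SE 0.28, adjusted p 2.38e-10). Foxd3, a neural crest factor upstream of glial fate, ran 4.84 to 14.2 CPM (median 9.87) in batch A and 0 to 1.01 CPM (median 0.376) in batch B (edgeR log2 fold change -4.85, SE 0.65, adjusted p 1.46e-05). The neurotrophin receptor gene Ngfr ran 291 to 339.9 CPM (median 328) in batch A and 18.1 to 46.2 CPM (median 30.9) in batch B (edgeR log2 fold change -3.37, SE 0.16, adjusted p 5.32e-12). All 3 are genes of glial cells and their precursors. Erbb3, the neuregulin receptor on which Schwann cells depend, ran 57.2 to 92.2 CPM (median 80.2) in batch A and 10.1 to 24.7 CPM (median 21.04) in batch B (edgeR log2 fold change -2.03, SE 0.21, adjusted p 5.45e-07). The growth cone protein gene Gap43 ran 47.3 to 75.4 CPM (median 59.2) in batch A and 1.43 to 5.83 CPM (median 3.77) in batch B (edgeR log2 fold change -4.001, SE 0.26, adjusted p 5.84e-10). The cadherin gene Cdh19 ran 27.7 to 56.5 CPM (median 35.04) in batch A and 0 to 3.14 CPM (median 1.21) in batch B (edgeR log2 fold change -5.11, SE 0.54, adjusted p 7.49e-07). In none of these 6 did the batches overlap.

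All 14 genes of that list passed the filter, and 12 were called lower and 0 higher. The filter was passed by 3, Foxd3 and Cdh19 among them, only through batch A, which fixed their direction. Of the 10 that passed in both batches 9 were called lower. Itga4 was not called (edgeR log2 fold change -1.11, SE 0.60, adjusted p 0.204). Neither was Tfap2a, an AP-2 factor that epithelium also makes, at 14.3 to 19.9 CPM (median 17.5) in batch A and 9.42 to 21.4 CPM (median 15.7) in batch B (edgeR log2 fold change -0.11, SE 0.24, adjusted p 0.798). The summed level of the list ran from 1092 to 1277 CPM in batch A and from 178 to 209 CPM in batch B. In Sox2-negative cells 10 of the 14 genes were tested and 0 were called by edgeR, whose calls there took 6.28% of 15201 genes. There the sums ran from 858 to 1116 CPM in batch A and from 819 to 1062 CPM in batch B. Sox10 had a mean of 0.155 CPM over the Sox2-negative libraries of batch A and no count in those of batch B, so no difference of differences is given for it. For Ngfr it passed (edgeR difference of log2 fold changes -3.51, SE 0.36, adjusted p 1.57e-07).

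Genes of myelin and of mature Schwann cells were lower as well. Mbp, which encodes myelin basic protein, ran 215 to 345 CPM (median 294) in batch A and 8.29 to 30.04 CPM (median 16.6) in batch B (edgeR log2 fold change -4.04, SE 0.20, adjusted p 1.41e-11). Every batch B library lay below the lowest batch A library, and none reached 0.

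Several others did reach 0. Mag, an adhesion protein of the inner myelin wrap, ran 8.01 to 13.8 CPM (median 9.88) in batch A and had no count in batch B, at least 7.63-fold lower (edgeR adjusted p 1.02e-06). Cldn19 (ENSMUSG00000066058.11), a claudin of Schwann cell tight junctions, ran 4.38 to 50.4 CPM (median 36.8) in batch A and had 2 counts in all 7 batch B libraries together, a ratio of 556 (95% counting interval 154 to 4599.8). Egr2 (ENSMUSG00000037868.15), a transcription factor that drives myelination, ran 16.4 to 28.98 CPM (median 26.3) in batch A and 0 to 4.04 CPM (median 0) in batch B (edgeR log2 fold change -5.12, SE 0.67, adjusted p 1.02e-05), with library 7 as the highest of batch B. Dhh (ENSMUSG00000023000.5), the hedgehog ligand of Schwann cells, ran 21.2 to 39.8 CPM (median 35.3) in batch A and 0 to 4.51 CPM (median 0.146) in batch B (edgeR log2 fold change -5.19, SE 0.65, adjusted p 6.01e-06), with library 6 as the highest. The myelin protein gene Prx ran 35.4 to 60.7 CPM (median 48.8) in batch A and 0 to 4.75 CPM (median 1.72) in batch B (edgeR log2 fold change -4.63, SE 0.49, adjusted p 7.14e-07). Lgi4 (ENSMUSG00000036560.14), a secreted Schwann cell protein that was not on the lists, ran 14.98 to 46.2 CPM (median 31.3) in batch A and 0 to 0.745 CPM (median 0.291) in batch B (edgeR log2 fold change -6.68, SE 0.51, adjusted p 7.95e-09). It passed the filter only through batch A, which fixed its direction.

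Of the 21 myelin genes listed 18 passed the filter, 10 of them only through batch A, so their direction was fixed by the filter; 17 were called lower and 0 higher. Of the 8 that passed in both batches 7 were called lower. The gene not called was Ncmap, a small protein of noncompact myelin, 19.4 to 34.7 CPM (median 28.7) in batch A and 24.2 to 48.4 CPM (median 36.3) in batch B (edgeR log2 fold change 0.34, SE 0.21, adjusted p 0.283). Summed levels ran from 1592 to 1958 CPM in batch A and from 178 to 263 CPM in batch B. In Sox2-negative cells the sums ran from 171 to 231 CPM in batch A and from 240 to 267 CPM in batch B, higher in every batch B library. There 1 of 10 genes tested was called higher and 0 lower. That gene was Pmp22, a membrane protein of myelin that epithelia and fibroblasts also make. In Sox2-positive cells it ran 237 to 282 CPM (median 267) in batch A and 24.1 to 37.9 CPM (median 29.6) in batch B (edgeR log2 fold change -3.10, SE 0.11, adjusted p 1.01e-13). In Sox2-negative cells it averaged 67.8 ± 11.8 CPM (batch A, SD over 6 libraries) and 147 ± 13.3 CPM (batch B, SD over 4) (edgeR log2 fold change 1.12, adjusted p 0.00119). The opposite directions differed beyond error (edgeR difference of log2 fold changes -4.24, SE 0.19, adjusted p 5.71e-15).

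Lists of the related melanocyte and neuron fates were short, and the neuron list held few genes at measurable levels. Of 8 melanocyte genes 5 passed the filter, 2 were called lower in batch B and 1 higher. Ednrb, the endothelin receptor of neural crest derivatives, was the strongest, 163 to 261 CPM (median 203) in batch A and 12.6 to 27.2 CPM (median 18.04) in batch B (edgeR log2 fold change -3.45, SE 0.15, adjusted p 2.52e-12). The pigment protein genes Tyrp1, Pmel and Mlana did not pass the filter, while the remaining 5 members of the list did. Summed levels of the melanocyte list, Ednrb included, ran from 245 to 309 CPM in batch A and from 63.1 to 121 CPM in batch B. Of 9 neuron genes 2 passed, and Tubb3, a neuronal tubulin gene, was called lower (log2 fold change -1.98) and Isl2 higher. In the fit over all 23 libraries 0 genes of the list were called higher. The same held without library 2 or 3 of batch A, or without library 3, 4, 5 or 7 of batch B. The neurofilament and synaptic genes on the list did not pass the filter.

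**Figure D3:**
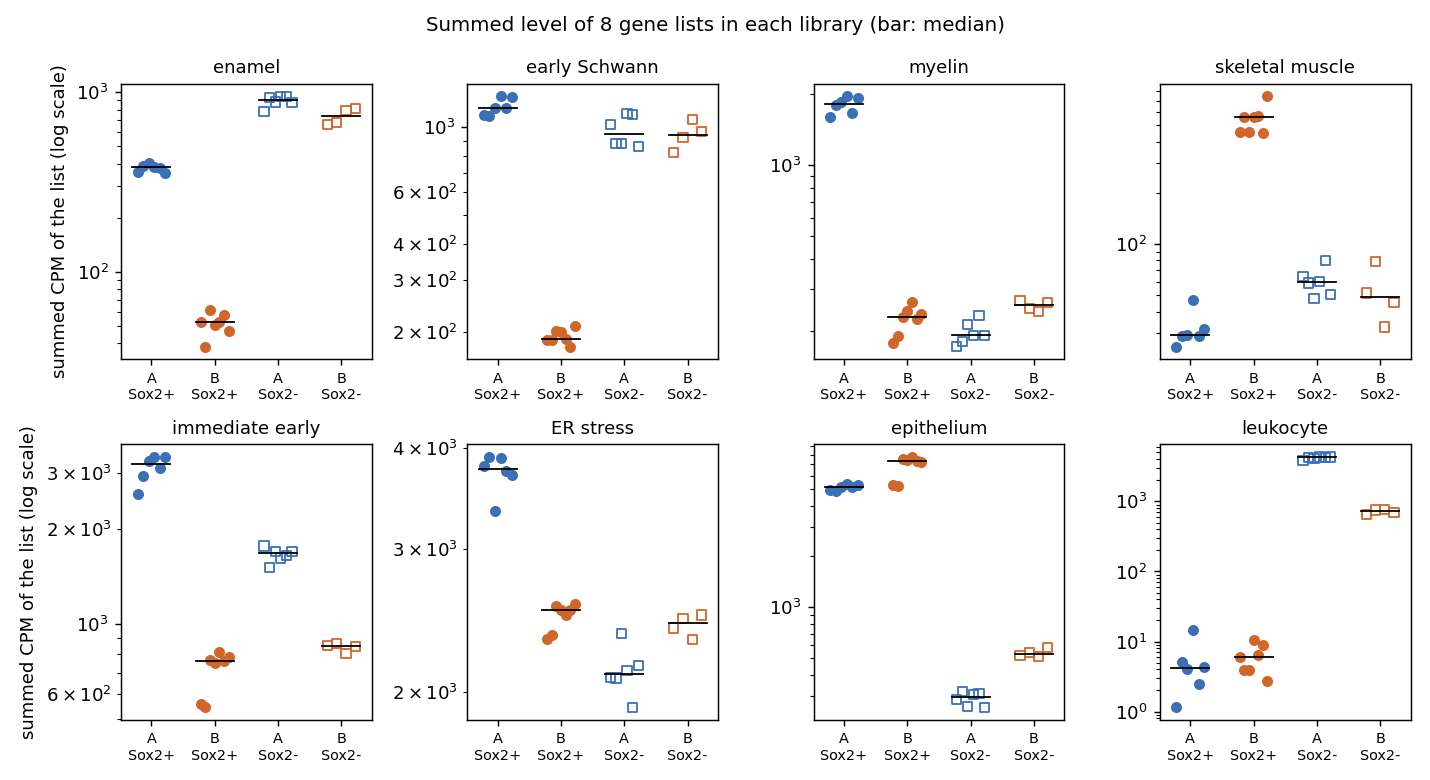
Summed CPM of 8 gene lists, on a log scale, in each of the 23 libraries: batch A in blue, batch B in orange, Sox2-positive cells as filled circles, Sox2-negative cells as open squares, and the median of each group as a bar. The myelin sums of batch B Sox2-positive libraries (178 to 263 CPM) lie near those of the Sox2-negative libraries, and the skeletal muscle sums (453 to 744 CPM) above all others.

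Skeletal muscle genes were higher in batch B, and in batch A most were at or near 0. Myod1 (ENSMUSG00000009471.4), the transcription factor that commits cells to the muscle fate, had no count in any batch A library and ran 11.4 to 34.1 CPM (median 20.6) in batch B. It was at least 27.6-fold higher, with 3 counts in the shallowest batch A library as the floor (edgeR adjusted p 5.67e-08). Myog (ENSMUSG00000026459.5), the factor that drives myoblast differentiation, ran 0 to 1.37 CPM (median 0) in batch A and 26.4 to 96.4 CPM (median 54.5) in batch B, and 4 of the 6 batch A libraries had no count (edgeR log2 fold change 7.05, SE 0.58, adjusted p 2.17e-08). Mymk, which encodes the fusion protein myomaker, ran 0 to 2.31 CPM (median 0) in batch A and 5.38 to 9.61 CPM (median 7.07) in batch B (edgeR log2 fold change 4.08, SE 0.83, adjusted p 0.00124). Its highest batch A library was library 6, at 2.31 CPM.

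Structural muscle genes rose with these regulators. Actc1 (ENSMUSG00000068614.7), cardiac alpha actin, which is also the alpha actin of embryonic skeletal muscle, had no count in batch A and ran 86.1 to 176 CPM (median 102) in batch B, at least 152-fold higher (edgeR adjusted p 1.87e-11). Acta1 (ENSMUSG00000031972.5), skeletal alpha actin, ran 0 to 4.28 CPM (median 0) in batch A and 107 to 184 CPM (median 127) in batch B (edgeR log2 fold change 7.23, SE 0.56, adjusted p 3.04e-08). In both genes library 7 of batch B was the highest and stood apart from the other 6. The sarcomere light chain gene Myl1 (ENSMUSG00000061816.15) had no count in batch A and ran 32.9 to 54.3 CPM (median 40.2) in batch B, at least 56.9-fold higher. Ckm (ENSMUSG00000030399.2), muscle creatine kinase, ran 0 to 1.76 CPM (median 0.105) in batch A and 35.2 to 73.5 CPM (median 55.3) in batch B (edgeR log2 fold change 6.95, SE 0.49, adjusted p 2.32e-09). Ttn (ENSMUSG00000051747.15), the giant sarcomere spring titin, ran 0 to 1.48 CPM (median 0.545) in batch A and 5.86 to 104 CPM (median 27.8) in batch B (edgeR log2 fold change 5.83, SE 0.74, adjusted p 9.66e-06). For Ttn limma-voom with quality weights did not pass (adjusted p 0.181). Myh3, the embryonic myosin heavy chain, had no count in batch A and ran 2.24 to 13.5 CPM (median 4.32) in batch B, at least 7.84-fold higher.

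The alpha actin, light chain and creatine kinase genes moved together, and their promoters are printed because they hold letters known from muscle gene control. Capitals mark every match, on either strand, to the E-box CAGCTG, which MyoD family factors bind, to the CArG box, which serum response factor binds, and, for a later gene, to the cyclic AMP response element TGACGTCA. Each sequence is the 250 bases before the RefSeq start, 5′ to 3′ on the gene's strand, from build GRCm38.p6, and the matches do not overlap one another. Actc1 (chr2:114052876-114053125, minus strand) has 1 CArG box ending 37 bases before the start, Acta1 (chr8:123894776-123895025, minus strand) a CArG box and an E-box, and Myl1 (chr1:66945057-66945306, minus strand) and Ckm (chr7:19410844-19411093, plus strand) an E-box each.
Actc1: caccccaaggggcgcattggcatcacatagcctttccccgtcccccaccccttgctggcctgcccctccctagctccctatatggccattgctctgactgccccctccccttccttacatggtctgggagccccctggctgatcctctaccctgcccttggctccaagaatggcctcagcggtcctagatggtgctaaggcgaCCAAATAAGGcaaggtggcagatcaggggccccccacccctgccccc
Acta1: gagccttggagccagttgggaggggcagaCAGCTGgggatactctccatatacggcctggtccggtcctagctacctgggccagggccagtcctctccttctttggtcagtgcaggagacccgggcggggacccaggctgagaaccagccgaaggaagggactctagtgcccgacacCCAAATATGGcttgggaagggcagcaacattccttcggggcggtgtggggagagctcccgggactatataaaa
Myl1: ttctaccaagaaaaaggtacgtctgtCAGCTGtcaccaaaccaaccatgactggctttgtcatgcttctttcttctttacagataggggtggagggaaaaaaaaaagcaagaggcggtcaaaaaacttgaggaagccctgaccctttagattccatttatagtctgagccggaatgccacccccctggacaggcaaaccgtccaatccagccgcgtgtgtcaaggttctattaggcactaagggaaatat
Ckm: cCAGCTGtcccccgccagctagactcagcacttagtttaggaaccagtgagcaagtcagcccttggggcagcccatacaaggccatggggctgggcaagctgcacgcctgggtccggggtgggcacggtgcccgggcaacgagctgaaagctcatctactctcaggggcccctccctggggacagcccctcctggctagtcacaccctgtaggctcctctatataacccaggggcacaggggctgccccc
Of 15 muscle genes called higher, 11 had a promoter in the RefSeq table, and 5 of these 11 held the E-box (Chrna1, Acta1, Ckm, Mylpf and Myl1) and 2 the CArG box. Among 32851 RefSeq promoter windows of the same length, 4271 (13%) held the E-box letters and 482 (1.47%) the CArG box. A gene with more than 1 window counted as holding a motif if any of them matched, while these percentages count single windows. The shares are therefore not directly comparable. These matches describe letters in a short window and were not tested as sites.

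Of the 28 muscle genes listed, 21 passed the filter, 18 of them only through batch B and 0 in both batches, so that the filter fixed the direction of those 18; 15 were called higher and 0 lower. Without libraries 1 and 2 of batch B, 12 of 18 were called higher. Among the genes that were not called, the intermediate filament gene Des ran 0 to 7.86 CPM (median 3.20) in batch A and 1.79 to 7.08 CPM (median 3.50) in batch B (edgeR log2 fold change 0.46, SE 0.73, adjusted p 0.72). The other 5 also overlapped between the batches. The satellite cell gene Pax7 and the regulators Myf5 and Myf6 had no count in any of the 13 libraries. The sums of the list ran from 24.9 to 46.9 CPM in batch A and from 453 to 744 CPM in batch B, the highest in library 7 and the next at 569 CPM.

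Sox2-negative cells gave no call on this list. There 9 muscle genes were tested and edgeR called 0, with sums of 47.8 to 79.9 CPM in batch A and 32.4 to 79.0 CPM in batch B. Myod1 and Myog had no count in any of the 10 Sox2-negative libraries, and Actc1 averaged 0.171 CPM in batch A and had none in batch B. The difference of differences passed for Ttn (edgeR difference of log2 fold changes 5.72, SE 1.37, adjusted p 0.00879) and for Chrna1, the muscle acetylcholine receptor subunit (edgeR difference of log2 fold changes 1.99, SE 0.57, adjusted p 0.0306). It also passed for Actc1, Myl1 and Ckm (edgeR adjusted p 4.7e-05, 0.00934 and 0.0145).

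Smooth muscle and contractile genes rose too. Acta2, smooth muscle alpha actin, ran 19.1 to 40.3 CPM (median 32.3) in batch A and 184 to 225 CPM (median 216) in batch B without overlap (edgeR log2 fold change 2.72, SE 0.14, adjusted p 2.86e-11). Tagln, the actin-binding protein transgelin, ran 57.5 to 75.8 CPM (median 65.2) in batch A and 194 to 234 CPM (median 212) in batch B without overlap (edgeR log2 fold change 1.71, SE 0.094, adjusted p 4.58e-11). The proteoglycan gene Cspg4, of pericytes and other progenitors, ran 31.7 to 55.7 CPM (median 40.9) in batch A and 58.7 to 83.8 CPM (median 73.5) in batch B (edgeR log2 fold change 0.80, SE 0.15, adjusted p 0.000546). Of 10 pericyte and smooth muscle genes 7 passed the filter and 4 were called higher, 0 lower, while the smooth muscle myosin Myh11 stayed under 2 CPM in all 13 libraries. Acta2 also rose in Sox2-negative cells (edgeR log2 fold change 0.76, adjusted p 0.00674), by less than in Sox2-positive cells (edgeR difference of log2 fold changes 1.94, SE 0.21, adjusted p 6.32e-07).

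Mesenchymal genes were lower or not called. Col1a1, a chain of type I collagen, ran 302 to 546 CPM (median 459) in batch A and 22.3 to 54.002 CPM (median 34.97) in batch B (edgeR log2 fold change -3.58, SE 0.20, adjusted p 4.58e-11). Col3a1 (ENSMUSG00000026043.18), type III collagen of loose connective tissue, ran 297 to 518 CPM (median 389.6) in batch A and 1.35 to 15.004 CPM (median 7.29) in batch B (edgeR log2 fold change -5.63, SE 0.34, adjusted p 1.07e-09). Postn, the matrix protein periostin, ran 144 to 219 CPM (median 183) in batch A and 11.9 to 21.1 CPM (median 15.9) in batch B (edgeR log2 fold change -3.51, SE 0.15, adjusted p 8.55e-13). All 3 were lower in every batch B library than in any batch A library. Col1a2, whose protein joins Col1a1 in the type I trimer, ran 532 to 721 CPM (median 561) in batch A and 505 to 617 CPM (median 559.9) in batch B, with overlapping libraries and no call (edgeR log2 fold change -0.055, SE 0.077, adjusted p 0.673). Of 14 mesenchyme genes 11 passed the filter, 4 were called lower and 0 higher. Of the 9 that passed in both batches 3 were called lower. Lox (ENSMUSG00000024529.14), the enzyme that crosslinks collagen and elastin, was not on the list. It had no count in batch A and ran 14.7 to 27.1 CPM (median 17.3) in batch B, at least 25.6-fold higher. It passed the filter only through batch B, which fixed its direction. In Sox2-negative cells, where collagens are abundant, Col1a1 averaged 6021 ± 413 CPM (batch A, SD over 6 libraries) and 5688 ± 721 CPM (batch B, SD over 4). Neither was called there (edgeR adjusted p 0.649 for Col1a1 and 0.865 for Col3a1), and the difference of differences passed for both (edgeR adjusted p 1.38e-10 and 1.57e-07).

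Immediate early genes, which cells switch on within minutes of a stimulus, and which tissue dissociation is known to induce, were lower in batch B. Fos (ENSMUSG00000021250.13), the AP-1 subunit, ran 574 to 799 CPM (median 688) in batch A and 2.26 to 8.97 CPM (median 6.73) in batch B, a gap wider than the whole range of either batch (edgeR log2 fold change -6.98, SE 0.20, adjusted p 2.56e-15). Fosb ran 4.67 to 14.2 CPM (median 9.76) in batch A and had 2 counts in the 7 batch B libraries together, a ratio of 158 (95% counting interval 43.3 to 1310.2). Jun ran 152 to 235 CPM (median 179) in batch A and 12.8 to 44.4 CPM (median 36.9) in batch B (edgeR log2 fold change -2.60, SE 0.22, adjusted p 3.89e-08). Junb ran 149 to 258 CPM (median 188) in batch A and 8.45 to 26.6 CPM (median 12.7) in batch B (edgeR log2 fold change -3.68, SE 0.22, adjusted p 2.33e-10). In batch B the lowest values of Jun were those of libraries 1 and 2.

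The other early response genes fell likewise. The zinc finger factor Egr1 ran 148 to 253 CPM (median 243) in batch A and 4.52 to 14.1 CPM (median 7.45) in batch B (edgeR log2 fold change -4.76, SE 0.23, adjusted p 5.69e-12). Nr4a1, an orphan nuclear receptor, ran 46.1 to 99.96 CPM (median 77.3) in batch A and 5.35 to 12.8 CPM (median 7.89) in batch B (edgeR log2 fold change -3.13, SE 0.23, adjusted p 5.07e-09). Ccn1, a matricellular protein formerly named Cyr61, ran 81.8 to 137 CPM (median 90.4) in batch A and 1.46 to 9.96 CPM (median 3.17) in batch B (edgeR log2 fold change -4.57, SE 0.31, adjusted p 1.51e-09). Dusp1, a phosphatase that switches off stress kinases, ran 219.8 to 292 CPM (median 252) in batch A and 30.4 to 48.04 CPM (median 42.3) in batch B (edgeR log2 fold change -2.69, SE 0.13, adjusted p 1.23e-11). Its promoter (chr17:26508473-26508722, minus strand, GRCm38.p6, 250 bases before the start) is shown because it holds the cyclic AMP response element, in capitals.
Dusp1: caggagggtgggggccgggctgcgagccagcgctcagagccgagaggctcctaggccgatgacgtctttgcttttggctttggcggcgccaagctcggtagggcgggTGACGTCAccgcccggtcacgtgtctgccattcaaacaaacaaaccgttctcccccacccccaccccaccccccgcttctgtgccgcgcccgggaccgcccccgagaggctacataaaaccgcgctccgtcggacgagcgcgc
Of 18 immediate early genes called lower, 15 had a promoter in the table and 2 of these (Dusp1 and Btg2) held the letters TGACGTCA. The CArG box was held by 1 of the 15 (Zfp36). Of all windows 1.55% held TGACGTCA and 1.47% the CArG box. These are shares of single windows, while a gene counted if any of its windows matched.

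Of 24 genes on the list 21 passed the filter, 2 of them only through batch A, and 18 were called lower and 1 higher. Of the 19 that passed in both batches 16 were called lower and 1 higher. The exception was Fosl2, an AP-1 subunit of slower kinetics, 14.001 to 29.3 CPM (median 23.04) in batch A and 39.5 to 54.8 CPM (median 50.3) in batch B, higher in every batch B library (edgeR log2 fold change 1.13, SE 0.18, adjusted p 0.000108). Myc was not called, 54.4 to 109.5 CPM (median 85.4) in batch A and 70.4 to 98.5 CPM (median 80.7) in batch B (edgeR log2 fold change -0.044, SE 0.14, adjusted p 0.867). Summed levels ran from 2582 to 3380 CPM in batch A and from 544 to 815 CPM in batch B. In Sox2-negative cells the sums ran from 1508 to 1764 CPM in batch A and from 805 to 866 CPM in batch B, and of 22 genes tested 9 were called lower and 1 higher. Fos averaged 212 ± 41.01 CPM (batch A, SD over 6 libraries) and 21.3 ± 10.1 CPM (batch B, SD over 4) there (edgeR log2 fold change -3.31, adjusted p 9.07e-06). The fall was larger in Sox2-positive cells for 11 of 23 genes tested, among them Fos (edgeR difference of log2 fold changes -3.66, SE 0.33, adjusted p 2.11e-08) and Egr1 (edgeR difference of log2 fold changes -2.48, SE 0.49, adjusted p 0.00148). It was larger in Sox2-negative cells for 0.

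**Figure D4:**
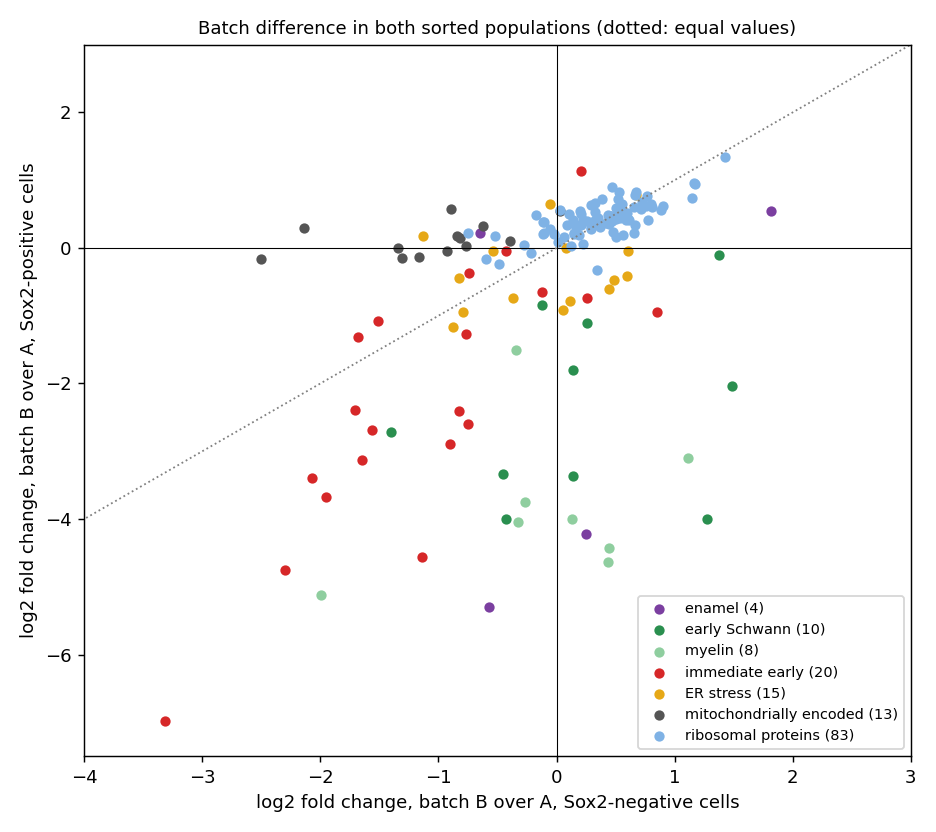
Log2 fold change of batch B over batch A in Sox2-negative cells (horizontal) and Sox2-positive cells (vertical) for members of 7 lists that were tested in both, without genes at 0 to 3 counts in one batch; the number of genes stands in brackets and the dotted line marks equal values. The 10 early Schwann and 8 myelin genes drawn lie below the line, at horizontal values from -1.99 (Egr2) to 1.49 (Erbb3), most immediate early genes are negative on both axes, and ribosomal protein genes lie near the line.

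Heat shock genes were called in both directions. The list, labelled cytosolic heat shock, also holds mitochondrial members such as Hspd1. Of its 16 genes 15 passed the filter, 2 were called higher and 4 lower, with a median log2 fold change of -0.16. The small heat shock gene Cryab ran 74.6 to 104.6 CPM (median 80.2) in batch A and 7.29 to 15.1 CPM (median 10.7) in batch B, without overlap (edgeR log2 fold change -2.91, SE 0.18, adjusted p 2.06e-10). Hspa1a, the inducible HSP70, ran 19.2 to 34.98 CPM (median 21.6) in batch A and 3.27 to 16.3 CPM (median 7.07) in batch B (edgeR log2 fold change -1.56, SE 0.33, adjusted p 0.00169). It has a near-identical copy, Hspa1b, so its level is uncertain. The mitochondrial chaperonin gene Hspd1 ran 309 to 370.4 CPM (median 337) in batch A and 196 to 271 CPM (median 235) in batch B (edgeR log2 fold change -0.55, SE 0.081, adjusted p 4.6e-05). In the other direction went 2 small heat shock genes. Hspb1 ran 82.9 to 132 CPM (median 117) in batch A and 137 to 204 CPM (median 176) in batch B (edgeR log2 fold change 0.60, SE 0.12, adjusted p 0.00102). Hspb8 ran 5.76 to 18.6 CPM (median 14.99) in batch A and 26.5 to 40.8 CPM (median 30.2) in batch B (edgeR log2 fold change 1.18, SE 0.24, adjusted p 0.00117). In the fit over all 23 libraries neither passed (edgeR adjusted p 0.176 and 0.203), and 3 genes of the list were called in all.

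Chaperones of the endoplasmic reticulum, where secreted proteins fold, were lower in batch B. Hspa5, the reticulum's HSP70 also named BiP, ran 802 to 1033 CPM (median 990.3) in batch A and 458 to 603 CPM (median 581) in batch B (edgeR log2 fold change -0.79, SE 0.076, adjusted p 2.14e-07). Calr, the calcium-binding chaperone calreticulin, ran 724 to 856 CPM (median 817.1) in batch A and 428 to 621 CPM (median 554) in batch B (edgeR log2 fold change -0.60, SE 0.082, adjusted p 1.69e-05). Sdf2l1, a cofactor of BiP, ran 81.6 to 123 CPM (median 90.4) in batch A and 35.3 to 55.5 CPM (median 42.9) in batch B (edgeR log2 fold change -1.17, SE 0.14, adjusted p 3.52e-06). None of the 3 overlapped between the batches. Of 17 genes of the reticulum and integrated stress response 16 passed the filter, 9 were called lower and 0 higher, with a median of -0.43. The stress-induced factor Ddit3, also named CHOP, was not called, 13.02 to 18.2 CPM (median 16.3) in batch A and 11.1 to 23.8 CPM (median 17.04) in batch B (edgeR log2 fold change 0.17, SE 0.22, adjusted p 0.645). In Sox2-negative cells Hspa5 was not called (edgeR log2 fold change 0.12, adjusted p 0.756) and Calr was higher (edgeR log2 fold change 0.44, adjusted p 0.0204); the difference of differences passed for both (edgeR adjusted p 0.000362 and 2.5e-06).

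Other stress lists showed mixed or few calls. Of 12 tested p53 and oxidative stress genes 2 were called higher (Cdkn1a at a log2 fold change of 0.61, and Phlda3) and 1 lower (Gadd45g). Of 5 interferon-stimulated genes tested 1 was called lower (Ifit2). Only 1 of those 5 passed the filter in both batches, and it was not called. Of 15 hypoxia and glycolysis genes tested 3 were called higher and 4 lower (1 lower in the fit over all 23 libraries). Ldha, lactate dehydrogenase A, ran 2217 to 2637 CPM (median 2407) in batch A and 1033 to 1482 CPM (median 1318) in batch B, without overlap (edgeR log2 fold change -0.93, SE 0.075, adjusted p 1.73e-08). The glucose transporter gene Slc2a1 ran 78.4 to 113 CPM (median 87.1) in batch A and 150.2 to 205 CPM (median 194) in batch B and rose (edgeR log2 fold change 0.98, SE 0.11, adjusted p 2.15e-06). So did the phosphofructokinase gene Pfkp, 57.1 to 92.2 CPM (median 79.98) in batch A and 133 to 182 CPM (median 164) in batch B (edgeR log2 fold change 1.02, SE 0.12, adjusted p 3.53e-06). The hypoxia-induced Car9 and Adm did not pass the filter.

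Genes of DNA replication were lower in batch B, and those of mitosis mostly not called. Of 14 genes of G1 and S phase, all 14 tested, 13 were called lower and 0 higher, with a median log2 fold change of -0.70; 10 were lower without libraries 1 and 2 of batch B, and 10 in the fit over all 23 libraries. Rrm2, a subunit of ribonucleotide reductase, ran 214 to 347 CPM (median 284) in batch A and 127 to 159.9 CPM (median 139) in batch B (edgeR log2 fold change -0.999, SE 0.10, adjusted p 5.47e-07). Mcm6, of the replicative helicase, ran 219 to 370.1 CPM (median 285) in batch A and 136 to 177 CPM (median 156) in batch B (edgeR log2 fold change -0.89, SE 0.11, adjusted p 3.52e-06). Neither overlapped between the batches. Of 16 genes of G2 and M phase, 4 were called lower and 1 higher. The lower calls were 0 in the fit over all 23 libraries, 7 with total-count scaling and 2 with upper-quartile scaling. They were also 2 without library 1 or library 6 of batch A or without library 3 of batch B. The higher one was Cenpe, a kinetochore motor, 32.6 to 54.4 CPM (median 41.1) in batch A and 53.2 to 73.1 CPM (median 59.2) in batch B (edgeR log2 fold change 0.60, SE 0.15, adjusted p 0.00553). The S-phase sums ran from 2299 to 2832 CPM in batch A and from 1445 to 1619 CPM in batch B, and the mitosis sums from 1503 to 1762 CPM and from 1338 to 1457 CPM. In Sox2-negative cells edgeR called 0 of 14 replication genes, and the fall was larger in Sox2-positive cells for 5 of 14, Mcm6 among them (edgeR difference of log2 fold changes -0.99, SE 0.19, adjusted p 0.00127).

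Cholesterol synthesis genes were lower together. All 18 listed passed the filter, 13 were called lower and 0 higher, with a median of -0.75. Insig1, a sterol sensor and itself a sterol-responsive gene, ran 97.03 to 127 CPM (median 123) in batch A and 21.5 to 48.9 CPM (median 32.4) in batch B (edgeR log2 fold change -1.74, SE 0.17, adjusted p 3.53e-07). Msmo1, a sterol demethylating enzyme, ran 54.3 to 78.4 CPM (median 69.6) in batch A and 22.4 to 32.3 CPM (median 26.8) in batch B (edgeR log2 fold change -1.35, SE 0.14, adjusted p 8.33e-07). The batches did not overlap in either gene. In Sox2-negative cells 1 of the 18 was called lower and 2 higher, Insig1 being the lower one (edgeR log2 fold change -0.90, adjusted p 0.00988).

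Signalling genes of tooth epithelium went both ways. Shh, the hedgehog ligand made by preameloblasts, ran 79.1 to 128 CPM (median 107) in batch A and 24.2 to 43.97 CPM (median 34.7) in batch B and was lower in every batch B library (edgeR log2 fold change -1.63, SE 0.16, adjusted p 3.55e-07). By contrast 6 of the 10 hedgehog pathway genes tested were called higher (4 without libraries 1 and 2 of batch B), the coreceptor Boc at a log2 fold change of 1.497 and the transcription factor Gli1 at 0.60. In Sox2-negative cells Shh averaged 17.6 ± 7.33 CPM (batch A, SD over 6 libraries) and 45.5 ± 20.1 CPM (batch B, SD over 4), and the difference of differences passed (edgeR difference of log2 fold changes -3.01, SE 0.39, adjusted p 8.92e-06). In the FGF pathway 6 of 14 genes tested were called lower and 2 higher. The epithelial ligand gene Fgf9 ran 27.5 to 62.4 CPM (median 38.3) in batch A and 7.82 to 17.04 CPM (median 12.2) in batch B (edgeR log2 fold change -1.71, SE 0.23, adjusted p 1.33e-05; 0.0732 in the fit over all 23 libraries). Dusp6, a phosphatase induced by FGF signalling, ran 369 to 495 CPM (median 453) in batch A and 176 to 223 CPM (median 191) in batch B (edgeR log2 fold change -1.17, SE 0.085, adjusted p 4.14e-09). Spry4, a feedback inhibitor, was lower at -1.88. Spred1, another inhibitor of the pathway, rose, 88.8 to 117 CPM (median 104) in batch A and 177 to 255 CPM (median 233) in batch B (edgeR log2 fold change 1.14, SE 0.10, adjusted p 5.37e-08).

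In the Wnt list 4 of 12 genes tested were called lower and 2 higher, or 3 and 1 without libraries 1 and 2 of batch B. The feedback inhibitor gene Nkd1 ran 22.1 to 43.97 CPM (median 24.7) in batch A and 2.59 to 8.94 CPM (median 4.89) in batch B, lower in every batch B library (edgeR log2 fold change -2.37, SE 0.30, adjusted p 5.96e-06). Tcf7 and Wnt6 were lower at log2 fold changes of -1.21 and -1.03. Of 17 BMP, activin and TGF-beta genes tested 5 were called higher and 5 lower. The lower calls were 3 without libraries 1 and 2 of batch B, without either of them, and without library 4 of batch B or library 3, 4 or 6 of batch A. Inhbb, the activin beta B subunit, ran 0 to 1.88 CPM (median 1.15) in batch A and 11.8 to 18.2 CPM (median 14.1) in batch B, at or near the floor in batch A (edgeR log2 fold change 3.81, SE 0.46, adjusted p 4.24e-06). It passed the filter only through batch B, which fixed its direction. Of the 14 genes of its list that passed in both batches 4 were called higher and 5 lower. The ligand gene Bmp4 ran 20.7 to 69.9 CPM (median 30.8) in batch A and 9.03 to 15.2 CPM (median 9.55) in batch B (edgeR log2 fold change -1.74, SE 0.28, adjusted p 0.000113). Id2, a BMP-induced inhibitor of helix-loop-helix factors, ran 194 to 253 CPM (median 224) in batch A and 90.9 to 119.7 CPM (median 104) in batch B (edgeR log2 fold change -1.06, SE 0.092, adjusted p 4.88e-08). In the Notch list 2 of 12 genes tested were called higher and 2 lower. The receptor gene Notch2 ran 103 to 158 CPM (median 116) in batch A and 371 to 629.9 CPM (median 431) in batch B, higher in every batch B library (edgeR log2 fold change 1.92, SE 0.13, adjusted p 1.07e-09). It rose by more than in Sox2-negative cells (edgeR difference of log2 fold changes 1.31, SE 0.18, adjusted p 1.55e-05). The lower ones were the target genes Heyl, at -2.09, and Nrarp.

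Ribosomal protein genes were higher in batch B in both populations. Of 89 listed 83 passed the filter, 63 were called higher and 1 lower, with a median log2 fold change of 0.42; under total-count scaling the numbers were 56 and 1. Together they took 4.46% ± 0.404 of the counts in batch A (SD, n = 6) and 5.67% ± 0.522 in batch B (n = 7), without overlap (exact permutation p = 0.000583). Rps13, the member with the largest log2 fold change, ran 55.8 to 74.5 CPM (median 65.6) in batch A and 147 to 181 CPM (median 175) in batch B (edgeR log2 fold change 1.34, SE 0.099, adjusted p 4.97e-09). It rose in Sox2-negative cells as well (edgeR log2 fold change 1.43, adjusted p 8.2e-05). Many of these genes have processed copies in the genome that could share their counts. Of 13 mitochondrially encoded genes 4 were called higher and 0 lower, with a median of 0.10, or 3 higher and 1 lower with total-count scaling. In Sox2-negative cells 11 of the 13 were called lower, and the difference of differences was positive for 11.

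Among 1176 called genes with non-overlapping batches and a mean of at least 10 CPM, the 10 with the highest and the 10 with the lowest log2 fold changes included, besides Lox and Lgi4, 4 that are on none of the lists. Of all these highest and lowest genes only Fos and Amelx passed the filter in both batches. The others passed only through the batch where they were higher, which fixed their direction. Kctd12 (ENSMUSG00000098557.1), an auxiliary subunit of GABA type B receptors, ran 1.38 to 9.97 CPM (median 4.69) in batch A and 28.2 to 68.6 CPM (median 52.9) in batch B (edgeR log2 fold change 3.30, SE 0.35, adjusted p 6.19e-07). Hmga1b (ENSMUSG00000078249.5) ran 0 to 1.15 CPM (median 0) in batch A and 50.3 to 112 CPM (median 84.4) in batch B (edgeR log2 fold change 8.30, SE 0.50, adjusted p 1.76e-10). It is a copy of Hmga1, and counts can be divided wrongly between them. Hmga1 ran 391 to 509 CPM (median 432) in batch A and 188 to 312 CPM (median 298) in batch B (edgeR log2 fold change -0.69, SE 0.12, adjusted p 0.000179). The histone gene Hist1h2ac (ENSMUSG00000069270.6), one of a family of near-identical copies, ran 21.1 to 31.7 CPM (median 24.9) in batch A and 0 to 2.01 CPM (median 0.517) in batch B (edgeR log2 fold change -5.24, SE 0.46, adjusted p 5.67e-08). Tmprss5 (ENSMUSG00000032268.13), a membrane serine protease reported in Schwann cells, ran 10.6 to 29.1 CPM (median 25.9) in batch A and 0 to 1.55 CPM (median 0) in batch B (edgeR log2 fold change -6.09, SE 0.61, adjusted p 3.46e-07), with library 1 as the highest of batch B. The other 16 were the enamel, Schwann cell, muscle, collagen, Lox, Lgi4 and Fos genes described above. 

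Set against the Sox2-negative cells of the same sorts, the batch difference took in more genes in Sox2-positive cells, in unequal numbers of libraries. In Sox2-negative cells 954 of 15201 genes were called (6.28%), 416 higher (2.74%) and 538 lower (3.54%), from 6 and 4 libraries. Over 12946 genes tested in both populations, 364 were called in both, which is 12.9% of the 2813 Sox2-positive calls and 47.3% of the 769 Sox2-negative calls; 294 had the same direction and 70 opposite directions. The difference of the batch differences passed for 1207 of 17190 genes (7.02%), 482 positive (2.80%) and 725 negative (4.22%), and 623 of the Sox2-positive calls were among them. Without libraries 1 and 2 of batch B in either population, which leaves 2 Sox2-negative libraries there, 499 genes passed. In Sox2-negative cells 12 of 13 leukocyte genes and 10 of 10 endothelial genes were called lower in batch B and 5 of 7 erythroid genes higher, the erythroid sums running from 948 to 1164 CPM in batch A and from 51757 to 58536 CPM in batch B. These markers were low in the Sox2-positive libraries, where only Egfl7 and Lyz2 among them passed the filter, Egfl7 at 17.5 to 35.0 CPM and Lyz2 at 0 to 3.79 CPM over all 13 libraries, and neither was called.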

How the data were processed

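RNA-seq values came from 1 deposited table of estimated counts per gene in 23 libraries, made by the authors with FastQC, Trimmomatic and Salmon on mouse build mm10, per the submitters' processing notes; the versions are not given in the sources used here. The deposited estimated counts were not whole and were rounded. Of 54347 Ensembl IDs, 54094 (99.53%) matched a symbol in GENCODE M21.

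The 13 Sox2-positive libraries were fitted with edgeR 4.0.16 in R 4.3.3: genes were kept by filterByExpr (minimum count 10), scaled by TMM, and tested by the robust quasi-likelihood test with Benjamini-Hochberg adjustment at 0.05. The 10 Sox2-negative libraries were fitted alike, and the difference of the batch differences came from 1 model of all 23. The test was checked on simulated data. The members and lists were chosen with earlier results of these data known. Genes were named by a rule: Sox2, the 10 highest and 10 lowest log2 fold changes among called genes with a mean of at least 10 CPM, no overlap and a conventional symbol, the members of each list with large changes, and its defining regulators; those given for pathway context were chosen after their values were seen. Alternatives were other scalings, filters and tools (DESeq2 1.42.0, limma 3.58.1), thinning, left-out libraries and a replicate block. Counting intervals are 95% exact intervals. A few members of the lists are counted but not reported here by name, and the ATAC-seq data were not analysed here.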

Additional observations from a re-analysis of the deposited data

Results flagged for a closer look

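Single libraries stood apart from their batch in 23 of 251 groups examined by Dixon's test, each a gene or a library measure in 1 batch. All those flagged were genes. Chance alone flags about 1 in 20 groups. Library 7 of batch B was the one apart for Acta1 (184.3 CPM), Actc1 (175.8 CPM) and Cdkn1a (155.1 CPM), and for genes near 0 in batch B, Egr2 (4.036 CPM), Cldn19 (0.4484 CPM) and Fosb (0.4484 CPM). Other batch B libraries stood apart for Sp6 (186.1 CPM, library 1), Tmprss5 (1.552 CPM, library 1), Dspp (0.6898 CPM, library 1), Mmp20 (0.5025 CPM, library 4) and Dhh (4.51 CPM, library 6). In batch A, library 6 was apart for genes near 0 there, namely Acta1 (4.281 CPM), Mymk (2.305 CPM), Aqp3 (1.811 CPM) and Hmga1b (1.153 CPM). Library 4 of batch A was apart for Ambn (46.43 CPM) and Col1a2 (720.7 CPM), and library 3 for Notch2 (158.1 CPM) and Ckm (1.759 CPM). Library 2 was low for Krt14 (849.1 CPM) and apart for Gli1 (47.48 CPM), library 1 was apart for Tcf7 (38.49 CPM), and library 5 for Krt6a (0.6281 CPM).

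The batch difference itself differed between Sox2-positive and Sox2-negative cells for 1207 genes, 57 of them among those described here (edgeR, adjusted over 17190 genes). The differences of log2 fold changes, Sox2-positive minus Sox2-negative, were negative for these genes of enamel, tooth transcription factors and signalling pathways: Amelx (-4.75), Ambn (-4.47), Shh (-3.01), Sp6 (-2.48), Nkd1 (-2.47), Spry4 (-2.33), Etv4 (-2.27), Wnt6 (-2.17), Bmp4 (-1.87), Satb1 (-1.59), Tcf7 (-1.36) and Id2 (-1.05). Glial and neural genes were negative as well: Lgi4 (-5.24), Prx (-5.11), Pmp22 (-4.24), Mbp (-3.72), Gap43 (-3.60), Erbb3 (-3.58), Ngfr (-3.51) and Tubb3 (-3.10). So were the matrix genes Col3a1 (-5.54), Col1a1 (-3.51) and Postn (-3.46), and the immediate early genes Fos (-3.66), Ccn1 (-3.43), Egr1 (-2.48), Jun (-1.85), Junb (-1.73), Nr4a1 (-1.50) and Dusp1 (-1.14). Smaller negative values were found for Hmga1 (-1.13), Calr (-1.06), Mcm6 (-0.99), Ldha (-0.95), Hspa5 (-0.92), Hspd1 (-0.88) and Insig1 (-0.86). Positive differences were those of Ttn (5.72), Kctd12 (2.06), Chrna1 (1.99), Acta2 (1.94), Pfkp (1.69), Notch1 (1.49), Lama5 (1.45), Igfbp5 (1.41), Tagln (1.33), Notch2 (1.31), Spred1 (1.27) and Dlx5 (0.99). Where a group had 3 counts or fewer in total, the adjusted p is given in place of a size: Lox 4.23e-09, Enam 2.38e-08, Actc1 4.7e-05, Cldn19 0.000196, Mag 0.000362, Aqp3 0.00182, Myl1 0.00934 and Ckm 0.0145.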

How the results depend on the processing

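The 3017 calls in Sox2-positive cells stayed within 1.5 times of that number under other scalings, filters and tools (2841 to 3469), without libraries 1 and 2 of batch B (2487) and with any 1 library left out (2639 to 2958). A fit over all 23 libraries, with 1 shared estimate of spread, called 1811 of 17190 genes, 844 higher and 967 lower. Of the 1811, 1595 were among the 3017. Among the genes followed through the alternatives, that fit lost the calls of 9, named with their adjusted p in the report except Mylpf (0.227). Genes named as called without a value, such as Isl2 and Rhov, were not followed one by one. Calls of lower enamel genes were 5 in place of 3 without the filter, with a filter on a mean of 10 counts, and over all 23 libraries. Calls of heat shock genes were 3 in place of 6 over all 23 libraries, and that fit also called fewer higher genes among epithelial markers (2 in place of 9), hemidesmosome genes (1 in place of 7) and dental transcription factors (4 in place of 8). It called fewer lower genes of mitosis (0 in place of 4), hypoxia and glycolysis (1 in place of 4) and the BMP, activin and TGF-beta list (3 in place of 5). Lower melanocyte calls were 1 in place of 2 in that fit, after thinning and without libraries 1 and 2 of batch B. They were also 1 without library 1 or 3 of batch A or library 2 or 6 of batch B, and 3 without the filter. Higher melanocyte calls were 0 in place of 1 in that fit, with total-count scaling, by limma-voom and with the replicate block. They were also 0 without libraries 1 and 2 of batch B and in most fits with 1 library left out. In Sox2-negative cells DESeq2 called 1616 genes in place of 954, and 299 were called without libraries 1 and 2 of batch B. Leaving out 1 library gave 542 to 868, the lowest 2 values being 542 without library 1 and 551 without library 2 of batch B. The difference of the batch differences passed for 499 genes without libraries 1 and 2 of batch B, in place of 1207. The batches differed by 807 genes detected in the mean (exact permutation p 0.169), by -14.0 with at least 5 counts required (p 0.975), and by 608 with all libraries thinned to 2305588 counts (p 0.00641). Only fold changes near 0 changed sign: Epcam was 0.0033 with upper-quartile scaling, 0.0026 without libraries 1 and 2 of batch B and 0.0044 without library 4 of batch A. With 1 library left out in turn, Epcam ran from -0.041 to 0.0044, Col1a2 from -0.081 to 0.013 and Myc from -0.14 to 0.047. Myc was 0.013 with the replicate block. The causes were not tested.

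The replicate numbers 1 to 6 occur in both batches, but the batches used different mice, and same-numbered libraries did not deviate together (correlations of -0.0284 to 0.0268 over 6 pairs, 1 of 6 highest with its own number), so the numbers do not pair the libraries. With the number as a replicate block, 2618 genes were called in Sox2-positive cells, 1257 higher and 1361 lower, 445 in Sox2-negative cells, and 586 for the difference of differences. It changed the call of none of the other genes followed through the alternatives.

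At these depths, genes under about 1 CPM cannot be compared, and the 4 batch B libraries limit what the Sox2-negative comparison can show.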
